A study of Homo sapiens with 372 samples.

Results

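The MYC and MAX network was described in single A2780 cells from 6 conditions. The genes were taken from the table of E-values by symbol, and earlier results of these data were known when they were chosen. Of 8 genes named (MYC, MYCN, MAX, MXI1, MXD4, MNT, MLX and MYCBP), 7 were among the 9664 genes listed, and MYCN was not analysed here. The table held 338 cells of A2780, an established human ovarian cancer line, captured on the Fluidigm C1 system and sequenced with Smart-seq2, a protocol that reads whole transcripts. They were 46 untreated control cells, 56 and 53 cells given 5 nM paclitaxel for 16 h and 48 h (named PAC 16 h and PAC 48 h here), 63 and 61 cells given 75 µM celecoxib for 2 h and 16 h (Cele 2 h and Cele 16 h), and 59 cells given both drugs at these doses for 16 h (PAC+Cele). Paclitaxel stabilizes microtubules and celecoxib inhibits cyclooxygenases.

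MYC is a transcription factor that pairs with MAX through a basic helix-loop-helix leucine zipper and binds E-box DNA, where the pair recruits histone acetyltransferases and the elongation kinase P-TEFb. MAX is also the partner of the antagonists MXI1, MXD4 and MNT, which bring the SIN3 and histone deacetylase repressors to the same kind of site. MLX pairs with MXD4 and MNT and with the glucose sensors MLXIP and MLXIPL, and MYCBP is a small protein that binds the amino-terminal part of MYC. MYC raises genes of ribosome production, nucleotide synthesis and cell division, and it has been proposed to amplify the output of all active genes, so that its level in a cell would move with the cell's total mRNA.

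Genes of the network can carry the E-box that its own proteins bind, so the promoters were searched for CACGTG, which reads the same on both strands. RefSeq promoter windows (GRCh38.p14, 250 bases before to 50 after a start) were at hand for 6 of the 7 genes, and 3 of them held the motif. It was 238 bases before the start of MXD4, 193 before that of MNT and 50 before that of MLX. No window of MAX, MXI1 or MYCBP held these letters. The stretches are shown because the results below set these genes beside MYC, with the motif in capitals and the hg38 positions chr4:2262322-2262359 (minus strand) for MXD4, chr17:2401228-2401273 (minus strand) for MNT and chr17:42567030-42567075 (plus strand) for MLX.
MXD4: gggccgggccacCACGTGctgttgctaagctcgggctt
MNT: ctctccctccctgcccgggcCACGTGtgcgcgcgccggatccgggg
MLX: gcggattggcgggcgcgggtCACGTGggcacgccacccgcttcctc
The motif was in 7.26% of all 35116 windows, in a window of 13.1% of the 7969 listed genes that had any, and in a window of 30 of 57 (52.6%) genes of a list of genes that MYC raises. A match describes the letters and not a bound site.

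The gene bodies, in GENCODE version 44 on hg38, are on chromosome 8 for MYC, at chr14:65006174-65102695 for MAX, chr10:110207605-110287365 for MXI1, chr4:2247432-2262109 for MXD4, chr17:2384073-2401104 for MNT, chr17:42567072-42573239 for MLX and chr1:38862493-38873368 for MYCBP. All 7 encode proteins. Exons of MAX overlap those of the listed genes FNTB and CHURC1-FNTB on the other strand by up to 822 bases. Exons of MLX overlap those of the listed gene PSMC3IP on the other strand by up to 715 bases. Exons of MYCBP share up to 214 bases with a listed readthrough gene on the same strand. Each of these lengths is the longest overlap of a single pair of exons, and the total shared can be larger. Smart-seq2 does not mark the strand, so reads from these shared stretches cannot be told apart.

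No label states the number of capture runs or cultures; each condition carries 1 run code in its labels and was taken as 1 run. Cells are not replicates of a condition, so no test between conditions was made, and SD values are spreads over cells. Condition and capture run cannot be told apart. Cells were also split into blocks of 96 by the S number in their labels. These blocks were taken as sets of library indices (index sets here), which no label states. Condition and index set cannot be told apart either, except in PAC 48 h and PAC+Cele, which each held cells of 2 sets. Reads per cell were not used here. The genes detected per cell (E-value above 0) had medians between 6125.5 and 6630 in the 6 conditions and were correlated with the total of the cell (Pearson's r between 0.71 and 0.92). The log2 total of the linear values, with the control median at 0, had a median of −0.99 in PAC 16 h, −0.64 in PAC 48 h, −0.76 in Cele 2 h, −1.52 in Cele 16 h and 0.49 in PAC+Cele. Of 9 markers fixed for an ovarian carcinoma line, KRT18 (23.9 to 36.5% of the cells of a condition) and VIM (62.5 to 86.8%) were listed. Of 4 markers of other cells LUM was listed (10.2 to 14.3% in 5 conditions and 29.5% in Cele 16 h), and the rest were not analysed here. The part of LUM in the differences of Cele 16 h was not tested.

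Values are E-values, log2(N/10 + 1), with N for TPM that the authors normalized to a spike-in RNA. TPM is per length, so levels can be compared between genes. A gene was called when its mean E-value over cells differed by over log2 of 1.5 (0.585), a limit of size and not a test, and low genes can hardly pass it. Differences are also given with the linear values of every cell rescaled to the same total, which takes out the spike-in scaling. All 5 treatment comparisons share the control cells.

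MYC had a mean E-value of 2.43 ± 1.81 (SD over cells) in the control, and it was lower after each single drug. The means were 1.24 ± 1.12 in PAC 16 h, 1.82 ± 1.44 in PAC 48 h, 1.39 ± 1.25 in Cele 2 h, 1.34 ± 1.33 in Cele 16 h and 2.70 ± 1.95 in PAC+Cele. In single cells the lowest value was 0 in every condition. The median and highest values were 2.36 and 5.92 in the control, 1.10 and 4.23 in PAC 16 h, 1.91 and 4.58 in PAC 48 h, 1.24 and 3.70 in Cele 2 h, 1.29 and 4.79 in Cele 16 h, and 2.92 and 5.72 in PAC+Cele. The cells of all 6 conditions overlapped, and with the conditions ordered by mean, no neighbouring pair differed by as much as the SD over cells. Of the treated cells, 49 of 56 in PAC 16 h, 33 of 53 in PAC 48 h, 45 of 63 in Cele 2 h and 49 of 61 in Cele 16 h were below the control median, against 23 of 59 in PAC+Cele.

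**Figure D1:**
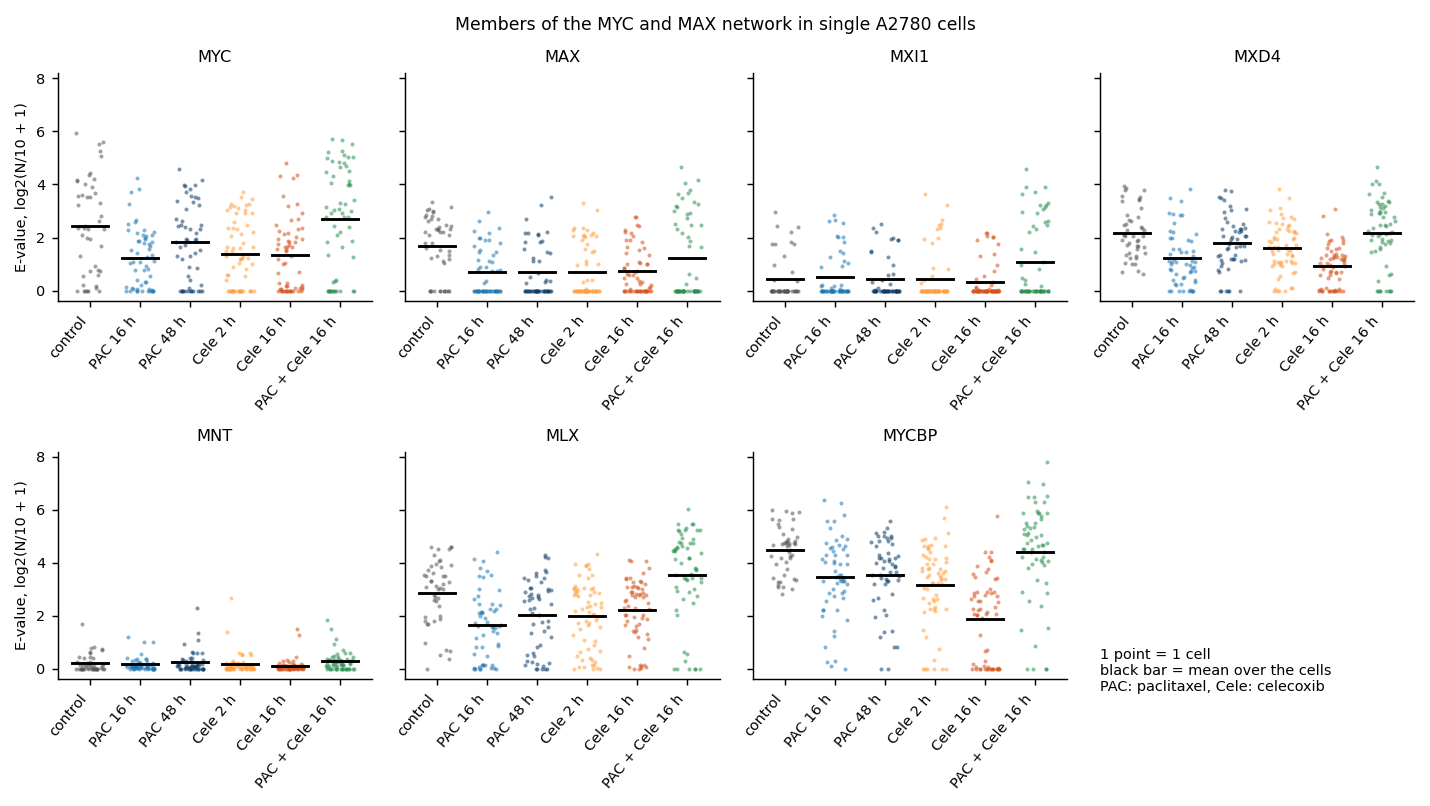
E-value of each gene (y axis, log2(N/10 + 1)) in every cell, by condition (PAC, paclitaxel; Cele, celecoxib). Points are cells and black bars are means; MYC has its highest means in the control (2.43) and with both drugs (2.70), and MYCBP has its lowest in Cele 16 h (1.88).

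MYC was detected in 87.0% of control cells (40 of 46, exact Clopper-Pearson 95% interval 73.7 to 95.1%, counting error only) and in between 68.3% (43 of 63) and 82.1% (46 of 56) of the cells of a treatment. Its transcripts were unevenly spread. In the control the highest 5 cells held 47.9% of the summed linear value, and the mean of 100.4 normalized TPM was 58.7 without them. In Cele 16 h the highest 5 cells held 48.9%, and with both drugs 30.1%.

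Set against the control, the mean E-value of MYC differed by −1.19 in PAC 16 h, where 8.59% of all genes had a larger fall, and −0.71 at the same total per cell. MYC differed by −1.04 in Cele 2 h, where 7.66% of genes had a larger fall, and −0.63 at the same total. In both conditions MYC passed the limit downward on either scale. In PAC 48 h it was −0.62, and −0.47 in the 31 cells whose S numbers fell in the control's index set and −0.83 in the other 22. In Cele 16 h it was −1.10. At the same total these were −0.14 and −0.28, within the limit. With both drugs the difference was 0.27, and −0.15 at the same total. The 2 index sets of these cells gave −0.00 (34 cells) and 0.64 (25 cells). The linear mean of MYC was 4.33-fold lower than in the control in PAC 16 h, 2.19-fold lower in PAC 48 h, 3.6-fold lower in Cele 2 h, 3.19-fold lower in Cele 16 h and 1.24-fold higher in PAC+Cele.

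MAX, the shared partner, had a mean E-value of 1.69 ± 1.11 in the control and between 0.68 and 0.74 after each single drug, with 1.23 ± 1.54 when both were given. Median and highest values were 2.09 and 3.33 in the control, 0 and 2.96 in PAC 16 h, 0 and 3.51 in PAC 48 h, 0 and 3.30 in Cele 2 h, 0.34 and 2.76 in Cele 16 h, and 0 and 4.65 in PAC+Cele. MAX was seen in 35 of 46 control cells (76.1%, interval 61.2 to 87.4%). It was seen in 46.4% of PAC 16 h cells, 43.4% of PAC 48 h cells, 41.3% of Cele 2 h cells, 62.3% of Cele 16 h cells and 45.8% of PAC+Cele cells (27 of 59, 32.7 to 59.2%). The linear mean was 32.9 normalized TPM in PAC+Cele and 31.5 in the control, with MAX seen in a smaller share of the PAC+Cele cells. The differences in mean E-value were −1.01 in PAC 16 h, −1.01 in PAC 48 h, −1.0 in Cele 2 h, −0.95 in Cele 16 h and −0.47 in PAC+Cele. At the same total they were −0.64, −0.68, −0.69, −0.35 and −0.59, so MAX was past the limit on this scale in 4 of 5 treatments. In PAC 48 h 3.84% of genes had a larger fall at the same total. Cells in which both MYC and MAX were detected were 31 of 46 in the control (67.4%, 52.0 to 80.5%), between 33.3 and 35.7% in 4 treatments and 52.5% in Cele 16 h. Detection of any gene also moves with the genes detected per cell. The part of that in these shares was not tested.

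Of the antagonists, MXD4 was the most abundant by mean E-value. Its mean was 2.18 ± 0.93 in the control, 1.21 ± 1.01 in PAC 16 h, 1.8 ± 1.02 in PAC 48 h, 1.61 ± 0.91 in Cele 2 h, 0.93 ± 0.75 in Cele 16 h and 2.18 ± 1.23 in PAC+Cele. The lowest control cell had 0.63, the median cell 2.07 and the highest 3.93, so MXD4 was detected in all 46 control cells, while every treatment had cells at 0. The median and highest cells had 0.98 and 3.07 in Cele 16 h, where 58 of 61 cells were below the control median. Differences from the control were −0.97 in PAC 16 h and −1.25 in Cele 16 h, both past the limit and larger than the SD over control cells, and −0.50 and −0.51 at the same total.

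MXI1 was low in most cells, with a mean E-value of 0.45 ± 0.84 in the control and between 0.33 and 0.50 after single drugs. With both drugs it was 1.08 ± 1.45, and the median cell was at 0 in all 6 conditions. It was detected in 13 of 46 control cells (28.3%, 16.0 to 43.5%) and 27 of 59 cells with both drugs (45.8%, 32.7 to 59.2%), and the highest cell had 2.97 in the control and 4.60 with both drugs. The difference of 0.62 passed the limit upward, but 72.0% of genes had a smaller or negative difference there, and it was 0.27 at the same total. MNT had means between 0.12 and 0.28 in the 6 conditions. Its highest cells had between 1.2 and 2.69, and no difference passed the limit on either scale. The control means of MNT (0.21, and 0.15 at the same total) and of MXI1 (0.45 and 0.37) are below 0.585. Neither gene could therefore be called down against the control. The linear mean of MNT ran from 1.77-fold lower than in the control in Cele 16 h to 1.33-fold higher in PAC+Cele.

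The linear mean of MYC was 1.83 times the summed linear means of MXI1, MXD4 and MNT in the control. This ratio was 0.78 in PAC 16 h, 1.07 in PAC 48 h, 0.74 in Cele 2 h, 1.79 in Cele 16 h and 1.52 in PAC+Cele. The ratio to MXD4 alone ran from 1.03 in Cele 2 h to 2.63 in Cele 16 h. In these conditions the linear mean of MYC was 27.9 and 31.5 normalized TPM, while the sum of the antagonists was 37.6 and 17.6. The ratios rest on the few cells with most MYC, as described above, and carry no error over cultures.

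MLX had a mean E-value of 2.88 ± 1.24 in the control, 1.65 ± 1.27 in PAC 16 h, 2.01 ± 1.34 in PAC 48 h, 2.00 ± 1.26 in Cele 2 h, 2.21 ± 1.15 in Cele 16 h and 3.54 ± 1.70 in PAC+Cele. The median cell had 3.11 in the control, 1.62 in PAC 16 h, 2.31 in PAC 48 h, 2.20 in Cele 2 h, 2.50 in Cele 16 h and 3.98 in PAC+Cele, and each condition had cells at 0. The difference was −1.23 in PAC 16 h, where 48 of 56 cells were below the control median, and −0.68 at the same total. In Cele 16 h it was −0.67 as deposited but 0.41 at the same total, so that the direction turned with the scaling. With both drugs it was 0.67, and 0.15 at the same total.

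MYCBP had the highest mean E-value of the 7 genes over all cells and gave the largest fall among them. Its mean E-value was 4.47 ± 0.89 in the control, 3.46 ± 1.51 in PAC 16 h, 3.55 ± 1.37 in PAC 48 h, 3.16 ± 1.5 in Cele 2 h, 1.88 ± 1.58 in Cele 16 h and 4.42 ± 1.82 in PAC+Cele. The lowest, median and highest control cells had 2.82, 4.65 and 5.99. In Cele 16 h they had 0, 2.14 and 5.78, and 60 of 61 cells were below the control median. The difference of −2.59 there was the lowest but 41 among the 9664 genes, and the linear mean was 4.59-fold lower. With equal totals it was −1.63, and 0.31% of genes had a larger fall. In Cele 2 h the difference was −1.31, and −0.80 at the same total. With both drugs it was −0.05, and −0.62 at the same total. After each single drug the difference was larger than the SD over control cells.

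**Figure D2:**
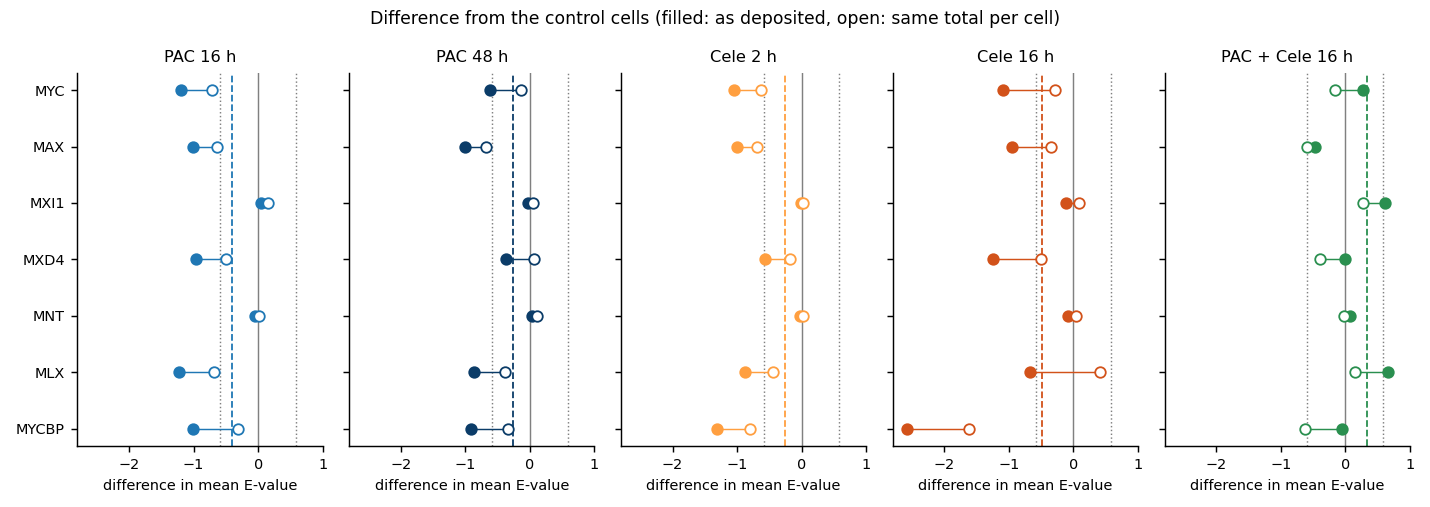
Mean E-value minus that of control cells (x axis) for each gene (rows) and treatment (panels), as deposited (filled) and at the same total per cell (open). Dotted lines mark the limit of 0.585 and dashed lines the median of all genes on the deposited scale; MYCBP in Cele 16 h lies farthest out, at −2.59 and −1.63.

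Over the network, 5 of 7 genes were past the limit downward in PAC 16 h (MYC, MAX, MXD4, MLX and MYCBP), against 37.3% of all genes. In PAC 48 h 4 of 7 were (26.6% of all genes), in Cele 2 h 4 (25.7%) and in Cele 16 h 5 (43.9%). MXI1 and MNT are among the 7 but could not be called down, since their control means were under the limit. None of the 7 genes was past the limit upward after a single drug. Of all genes 0.0931%, 0.921%, 1.12% and 0.383% were, in the same order. With both drugs 0 were down (1.76% of all genes), and MXI1 and MLX were up (30.4%). In the index set of 34 of these cells MXI1 was 0.69 and MLX 0.85 higher than in the control. In the set of 25 cells they were 0.53 and 0.41 higher, within the limit. The median difference of the 7 genes was −1.01, −0.62, −0.88, −0.95 and 0.07 in the 5 treatments, beside −0.41, −0.26, −0.26, −0.48 and 0.33 for all genes.

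With equal totals, 3 of 7 genes were down in PAC 16 h (MYC, MAX and MLX, with 10% of all genes down) and 3 in Cele 2 h (MYC, MAX and MYCBP, with 8.11%). MAX alone was down in PAC 48 h (5.77% of all genes) and MYCBP alone in Cele 16 h (7.95%). Both of these were down with the combination (5.79%). The median of the 7 genes was −0.50, −0.14, −0.45, −0.28 and −0.15, beside −0.07, 0.00, −0.02, 0.03 and 0.02 for all genes. This number of genes is too small for more than this description.

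Against each single drug at 16 h, the combination had higher E-values of most of the network. MYC was higher by 1.46 than with paclitaxel and by 1.36 than with celecoxib, and MXD4 by 0.97 and 1.25. MLX was higher by 1.90 and 1.33. For MYCBP the differences were 0.96 and 2.54. Past the limit upward were 4 of 7 genes against paclitaxel, where 62.4% of all genes were, and 5 of 7 against celecoxib, where 66% were. With equal totals, MLX was past it against paclitaxel (0.83, with 9.56% of all genes up) and MYCBP against celecoxib (1.00, with 5.03% up). MYC differed by 0.56 and 0.13 at the same total, within the limit.

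Between the times of a drug, MYC was 0.57 higher in PAC 48 h than in PAC 16 h and MXD4 0.59 higher, which made MXD4 the only one of the 7 past the limit (7.88% of all genes up). With equal totals these were 0.57 and 0.56. From Cele 2 h to Cele 16 h MYCBP was 1.27 lower and MXD4 0.68 lower (19.3% of all genes down), and MYC differed by −0.05. With equal totals MYCBP was 0.82 lower (3.9% of all genes down) and MLX 0.85 higher (7.87% up).

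The correlation of each gene with the log2 total of the same cell asks whether its level moved with the amount of mRNA, as proposed for MYC. Pearson's r of MYC was 0.49 in the control (46 cells), 0.51 in PAC 16 h (56 cells), 0.12 in PAC 48 h (53 cells), 0.18 in Cele 2 h (63 cells), 0.28 in Cele 16 h (61 cells) and 0.44 in PAC+Cele (59 cells). The total is the sum over the genes, and all genes of a cell share its spike-in scaling and depth. The median r of all genes was 0.27, 0.37, 0.25, 0.30, 0.22 and 0.33 in the same order. Set beside genes within the same unit of mean E-value, MYC was above their median in 4 conditions and below it in PAC 48 h and Cele 2 h. It was between their 10th and 90th percentiles in all 6.

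**Figure D3:**
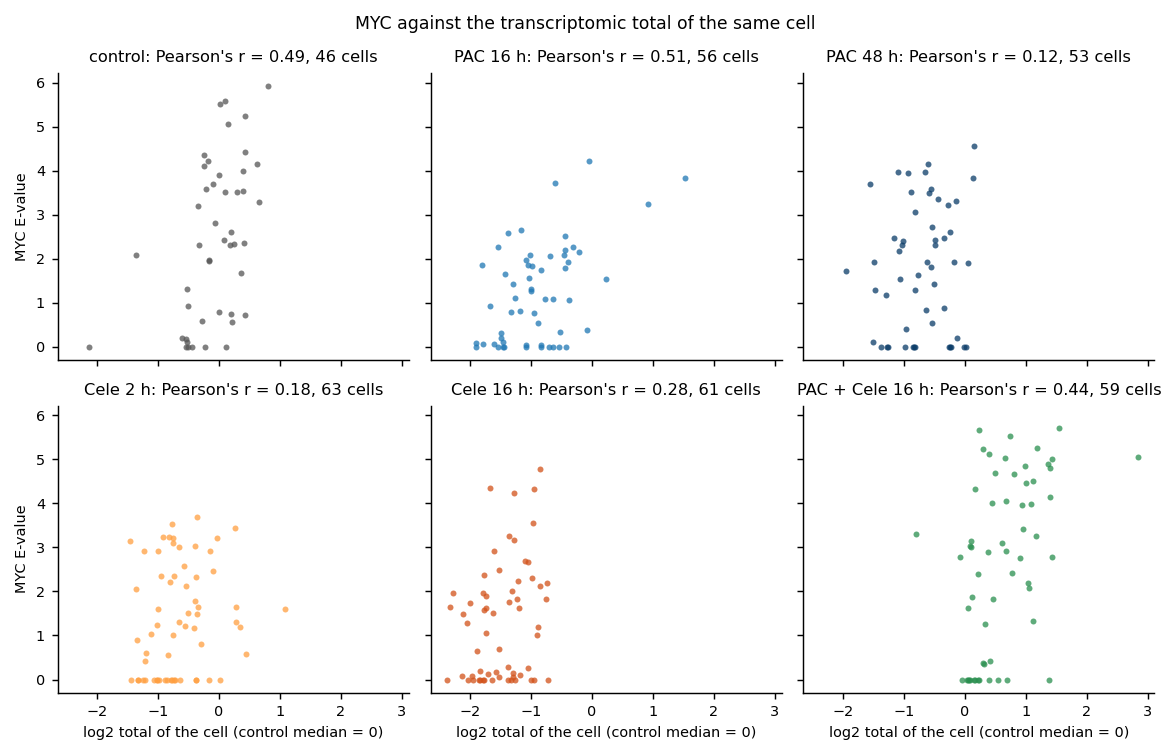
MYC E-value (y axis) against the log2 total of the cell (x axis, control median at 0) in the 6 conditions. Each point is a cell; r is 0.49 in the control and 0.12 in PAC 48 h.

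When MYC was taken at the same total per cell, its r with the total was 0.37 in the control, 0.20 in PAC 16 h, −0.073 in PAC 48 h, −0.013 in Cele 2 h, 0.13 in Cele 16 h and 0.20 in PAC+Cele, where the median of all genes was between 0.06 and 0.08. Without the 2 cells farthest from the median total, r of MYC in PAC 16 h was 0.36 in place of 0.51. Spearman's rho was between 0.09 and 0.50 in the 6 conditions.

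MLX (r between 0.36 and 0.56) and MYCBP (0.31 to 0.63) were above the median of all genes in all 6 conditions. Against genes of a like level, MLX was above the median in 5 and MYCBP in 2. MAX had r between 0.16 and 0.28. Of the antagonists, MXD4 had r between 0.11 and 0.38, MXI1 between 0.02 in the control and 0.46 with both drugs, and MNT between 0.07 and 0.48. Without the 2 farthest cells, MXI1 with both drugs had 0.35 and MNT in PAC 16 h had 0.35 in place of 0.48. Spearman's rho was 0.30 and 0.35 for these. For genes taken at the same total, r ran from −0.27 to 0.10 for MXD4, −0.11 to 0.29 for MXI1 and −0.09 to 0.17 for MNT.

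**Figure D4:**
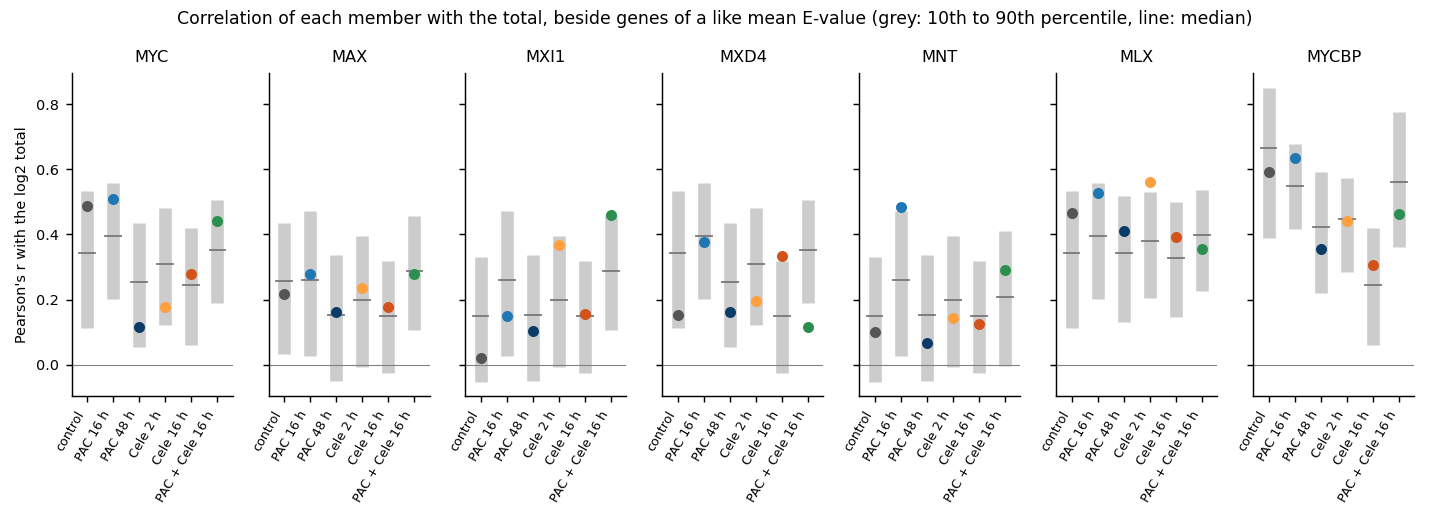
Pearson's r of each gene with the log2 total (y axis) by condition (coloured points), beside genes within the same unit of mean E-value (grey bar, 10th to 90th percentile; grey line, median). MYC stays within the grey bar in all 6 conditions, from 0.51 in PAC 16 h to 0.12 in PAC 48 h.

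Of 72 genes that MYC raises, written from general knowledge (ribosome production, translation, nucleotide and polyamine synthesis, cell division), 70 were listed. On the deposited scale 60 were down in PAC 16 h, 56 in PAC 48 h, 52 in Cele 2 h, 55 in Cele 16 h and 6 in PAC+Cele, which are 85.7%, 80.0%, 74.3%, 78.6% and 8.57% of the list beside 37.3%, 26.6%, 25.7%, 43.9% and 1.76% of all genes. None was up after a single drug, and 4 of 70 were up in PAC+Cele, where 30.4% of all genes were. Their medians were −1.09, −0.94, −0.93, −1.32 and 0.07, below those of all genes in each treatment. With equal totals 29, 18, 21, 18 and 21 were down, and 0, 0, 1, 5 and 1 up. These are 41.4%, 25.7%, 30.0%, 25.7% and 30.0% of the list down, beside the 10%, 5.77%, 8.11%, 7.95% and 5.79% of all genes given above. The list holds well expressed genes, which can pass the limit more readily than low ones.

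The largest falls of this list on the deposited scale included CCNB1, the cyclin of entry into mitosis, in all 5 treatments (−2.01, −2.51, −2.32, −3.60 and −1.95, and −1.28, −1.94, −1.82, −2.53 and −2.41 at the same total). EIF2S1, a subunit of an initiation factor of translation, fell by 1.74 in PAC 48 h and by 2.71 in Cele 16 h, and by 1.14 and 1.49 at the same total. SRM, the spermidine synthase, fell by 1.99 in Cele 2 h and FARSA, a subunit of a tRNA synthetase, by 2.04 in PAC 16 h, and these were 1.45 and 1.38 at the same total. RRP9, a factor of ribosomal RNA processing, fell by 1.12 with both drugs, and by 1.24 at the same total. With equal totals, NOC4L (−1.28, PAC 16 h) and NOP16 (−1.27, both drugs), both of ribosome production, were each among the 2 lowest. SHMT2, the serine hydroxymethyltransferase of mitochondria, was 1.31 higher with both drugs and, at the same total, 0.73 higher there, 0.85 in Cele 2 h and 1.09 in Cele 16 h. BCAT1, a transaminase of branched-chain amino acids, was 1.09 higher in Cele 16 h at the same total. WDR12 was 0.78 higher with both drugs, and 0.11 at the same total.

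**Figure D5:**
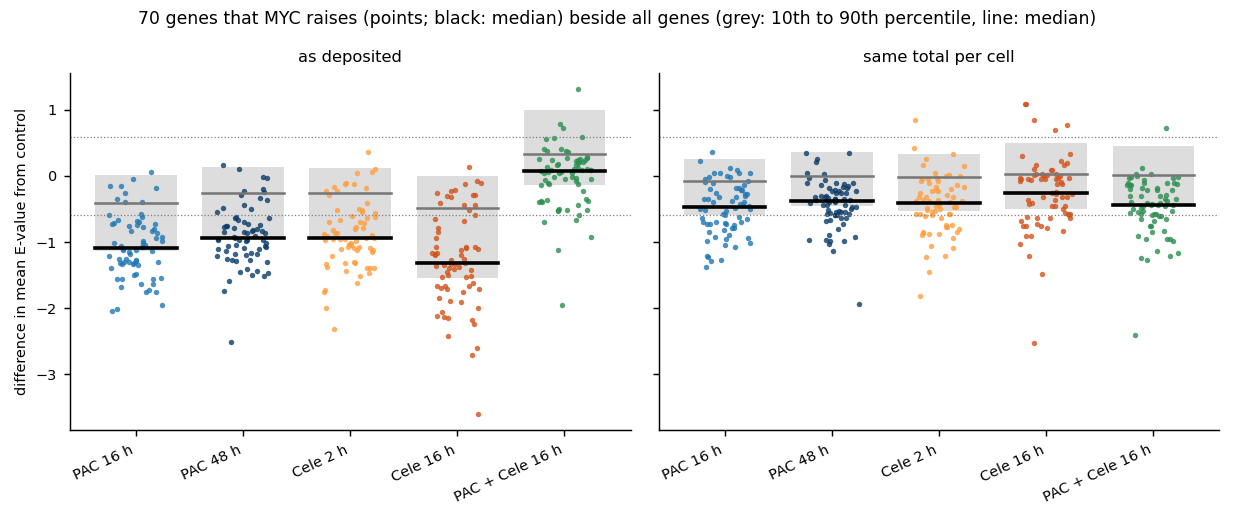
Mean E-value minus that of control cells (y axis) of 70 genes that MYC raises (points) in each treatment, as deposited (left) and at the same total per cell (right). Black bars are their medians, grey boxes and lines the 10th to 90th percentile and median of all genes, dotted lines the limit of 0.585; the black median lies under the grey one in every treatment, at −0.47 against −0.07 in PAC 16 h on the right.

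Within a condition, cells with more MYC had more of these genes. With equal totals, Pearson's r between MYC and the mean of the 70 genes was 0.51 in the control, 0.36 in PAC 16 h, 0.44 in PAC 48 h, 0.34 in Cele 2 h, 0.34 in Cele 16 h and 0.40 in PAC+Cele. Between 95.1% and 98.3% of the genes outside the list had a lower r in each condition, as had between 94.6% and 98.3% of those within the same unit of mean E-value as MYC. MLX had r above 0 in all 6 conditions (0.09 to 0.33), and MYCBP ran from −0.13 in the control to 0.34 in PAC 16 h, where MYC had 0.36. MAX had r between 0.06 and 0.24. The median r of genes outside the list was also above 0 in each condition (0.02 to 0.06). Between 62.3% and 92.7% of these genes had a lower r than MLX, and between 52.9% and 86.3% a lower r than MAX. MXD4 was below 0 in 5 conditions, down to −0.30 in the control, and 0.18 in PAC 16 h. The other antagonists had r of either sign. MXI1 ran from −0.16 in PAC 16 h to 0.13 in Cele 16 h, and MNT from −0.12 in PAC 48 h to 0.18 in Cele 16 h. The cells share their capture run and each cell its depth, so these values describe the cells.

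Of 12 genes that MYC lowers, 7 were listed. CDKN1A, an inhibitor of cyclin-dependent kinases that p53 also raises, was up by 1.86 in PAC 48 h and 1.00 in Cele 16 h, and by 1.96 and 1.5 at the same total. GADD45A, a stress gene, was 0.77 and 0.95 higher at the same total in these conditions, where it was 0.48 and 0.21 as deposited, and it was up with both drugs (0.80, and 0.41 at the same total). GADD45B, a stress gene of the same family, had a control mean of 2.07 and was down in PAC 16 h (−1.37, and −0.99 at the same total) , Cele 2 h (−1.09, −0.76) and Cele 16 h (−0.85, −0.10). With both drugs it was −0.54, and −0.71 at the same total, past the limit. FTH1, the ferritin heavy chain, was up with both drugs (1.13, and 0.43 at the same total) and turned from −0.94 to 0.46 at the same total in Cele 16 h. TSC22D1 was down in PAC 16 h (−1.09, −0.47 at the same total), up with both drugs (1.03, 0.37) and turned from −0.37 to 0.80 in Cele 16 h. CDKN1B and CDKN1C stayed within the limit in all 5 treatments.

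Among 14 coactivators of MYC, 7, 6, 7, 9 and 0 were down on the deposited scale in the 5 treatments and 5, 2, 4, 2 and 0 at the same total. As deposited these are 50.0%, 42.9%, 50.0%, 64.3% and 0% of the list, beside 37.3%, 26.6%, 25.7%, 43.9% and 1.76% of all genes. At the same total they are 35.7%, 14.3%, 28.6%, 14.3% and 0%, beside 10%, 5.77%, 8.11%, 7.95% and 5.79% of all genes. None was up, where 30.4% of all genes were up in PAC+Cele. RUVBL2 and ACTL6A, subunits of chromatin complexes that MYC binds, fell by 2.31 and 2.24 in Cele 16 h and by 1.07 and 1.12 at the same total. WDR5, which helps to anchor MYC on chromatin, fell by between 1.02 and 1.12 after each single drug, and its differences at the same total lay between −0.49 and −0.66. CDK9, the kinase of P-TEFb, fell by 1.84 in PAC 16 h and 1.42 in Cele 2 h, and by 1.33 and 0.98 at the same total. In Cele 16 h CDK9 was −0.63 as deposited but 0.54 at the same total. KAT5, KAT2A, RUVBL1 and HCFC1 were each past the limit downward in at least 1 treatment, and their differences in Cele 16 h were −0.82, −0.80, −1.57 and −0.65. On the same total these were −0.31, −0.38, −0.29 and −0.11.

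Of 8 corepressors, 4, 4, 3, 4 and 0 were down as deposited in the 5 treatments and 2, 0, 1, 2 and 0 at the same total. The 4 of 8 in Cele 16 h are 50.0%, near the 43.9% of all genes, and in the other treatments 50.0%, 50.0%, 37.5% and 0% stand beside 37.3%, 26.6%, 25.7% and 1.76%. At the same total the shares are 25.0%, 0%, 12.5%, 25.0% and 0%, beside 10%, 5.77%, 8.11%, 7.95% and 5.79% of all genes. HDAC1, HDAC2 and SAP30 were down after every single drug as deposited, with HDAC1 at −1.60, −0.70, −1.20 and −1.67 in the 4 conditions and −1.05, −0.16, −0.72 and −0.67 at the same total. HDAC2 was −0.53, −0.58, −0.27 and −0.37 at the same total, within the limit in each, and SAP30 was −0.66, −0.32, −0.21 and −0.64. NCOR1 was −0.65, −0.71, −0.47 and −0.72 after single drugs and was up with both drugs (1.01). Taken at the same total it was 0.10, −0.14, 0.06, 0.58 and 0.33, so its direction turned in 3 of the 4 single-drug conditions. Of 10 genes that act on MYC protein, 5, 4, 6, 8 and 1 were down as deposited and 3, 2, 2, 4 and 2 at the same total. Of all genes 37.3%, 26.6%, 25.7%, 43.9% and 1.76% were down as deposited, and 10%, 5.77%, 8.11%, 7.95% and 5.79% at the same total. AURKA, a kinase that stabilizes MYC family proteins, was down in all 5 treatments on both scales (between −1.25 and −2.74, and between −1.31 and −1.93 at the same total). AURKA is also a mitotic gene. SKP2, of a ubiquitin ligase for MYC, fell by between 1.13 and 1.83 after single drugs, and by between 0.72 and 1.06 at the same total. KIAA1524 (CIP2A), which protects MYC from phosphatase 2A, was −0.74, −0.61, −0.73, −1.2 and −0.53 in the 5 treatments, past the limit after every single drug. With equal totals it was −0.49, −0.33, −0.50, −0.79 and −0.68. USP36 was −0.72, PPP2R5A −0.67 and GSK3B −0.60 in Cele 16 h. Their same-total differences were −0.22, −0.13 and −0.06. USP28 and HUWE1 were 0.91 and 0.63 higher with both drugs, and 0.50 and 0.09 at the same total.

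The other listed genes of the network (MXD1, MXD3, MGA, MLXIP and MLXIPL) were low, with control means between 0.11 and 0.86, and 0 of 5 passed the limit after a single drug. Of all genes 37.3%, 26.6%, 25.7% and 43.9% were down in PAC 16 h, PAC 48 h, Cele 2 h and Cele 16 h. MXD1, MXD3 and MLXIPL had control means of 0.575, 0.45 and 0.11, under the limit, so they could not be called down. MGA and MLXIP could hardly be. The mean of MXD1 was 0.17 in PAC 16 h, 0.46 in PAC 48 h, 0.28 in Cele 2 h, 0.07 in Cele 16 h and 0.56 in PAC+Cele. With both drugs MGA, a partner of MAX that represses, passed the limit upward (0.63, and 0.33 at the same total). Of all genes 30.4% were up there. Among 4 inhibitors of P-TEFb, LARP7 was down in PAC 48 h (−0.89) and Cele 16 h (−1.07) and up with both drugs (0.74), and HEXIM2 was up with both drugs (0.63). The 1 of 4 down in PAC 48 h and in Cele 16 h stands beside 26.6% and 43.9% of all genes. The 2 of 4 up stand beside 30.4%. On the scale of equal totals LARP7 was −0.35, 0.10 and 0.09, so that it turned in Cele 16 h, and HEXIM2 was 0.21.

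With equal totals, with the mean of each condition taken out, the r of pairs of the 7 genes over the 338 cells ran from −0.035 to 0.11. The genes most like MYC in this measure were HBQ1, a globin gene (0.35), RPL8, a ribosomal protein (0.35), and RGS16, a regulator of G protein signalling (0.30). After these values were seen, ribosomal protein genes were counted among the 20 genes most like each member. They were 10 of 20 for MYC and 0 for each of the other 6, and the median r of MYC with all 82 of them was 0.19, beside 0.01 over all genes. For MYCBP the nearest were GINS2, of DNA replication (0.27), MIS18A, of centromere loading (0.26), and EXOSC8, of the RNA exosome (0.26). The largest r was 0.25 for MAX (DNM2), 0.24 for MXI1 (PARK2), 0.24 for MXD4 (MAGED4B), 0.25 for MNT (CIITA) and 0.25 for MLX (HSPA8). These values, those of the genes nearest MYCBP and that of RGS16 are too weak for sparse data to single these genes out.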

How the data were processed

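Single A2780 cells were measured in 6 conditions, each taken as 1 capture run from its run code, since no label gives the number of runs. Reads were trimmed (Trim Galore) and quantified by the authors as TPM (RSEM 1.3.0, Bowtie2) against hg38 transcripts of GENCODE version 28 joined by 3 spike-in RNAs, then scaled to the highest spike-in. The authors dropped 34 cells with low housekeeping genes, and genes not above 30% detection in any condition. The deposited values are log2 E-values. The authors' cell states in the same table were not used, nor was any doublet caller, which needs counts. The authors' spike-in scaling sets every level, so each result was also computed at the same total per cell. The pseudocount of 10 normalized TPM understates changes of low genes. Differences are of mean E-values over cells, with no test. Shares have exact Clopper-Pearson 95% intervals. The genes and lists were chosen with earlier results of these data known. Named from the lists were genes past the limit, the 2 largest rises and falls of target lists per treatment, and the 3 genes most like each member. Some genes of the lists are counted but not reported here by name. Steps were tested on simulated data. Positions are from GENCODE version 44. Software was scipy 1.17.1, numpy 2.4.6, matplotlib 3.10.9 and pandas 2.3.3 under Python 3.11.15.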

Additional observations from a re-analysis of the deposited data

How the results depend on the processing

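Taking every cell at the same total moved the difference of MYC toward 0 after each single drug. The fall of MYC was then −0.14 in PAC 48 h and −0.28 in Cele 16 h. MLX turned from lower to higher in Cele 16 h against the control (0.41) and from higher to lower between the combination and Cele 16 h (−0.26), and MYCBP turned to −0.31 between the combination and PAC 16 h. Genes of the network past the limit downward numbered 3, 1, 1 and 2 in PAC 16 h, PAC 48 h, Cele 16 h and PAC+Cele, 0 upward with both drugs, and raised targets of MYC past it numbered 29, 18, 21, 18 and 21. The r of MYC with the total was 0.37, 0.20, −0.073, −0.013, 0.13 and 0.20 in the control, PAC 16 h, PAC 48 h, Cele 2 h, Cele 16 h and PAC+Cele. The spike-in scaling itself cannot be checked against a replicate run, so which of the scales is nearer to the cells was not tested. In PAC 48 h the fall of MYC was −0.45 as a median over cells and −0.47 in the control's index set alone. In 1 of its 2 index sets MYC with both drugs was 0.64 higher than in the control. A 2-fold limit left 1 gene down in PAC 48 h, 3 in Cele 16 h and 0 up with both drugs. With a pseudocount of 1, or in cells with 5500 to 7000 genes detected, 1 gene was down and 1 up with both drugs, and 1 was up among genes detected in 50% of the cells of a condition. The ratio of linear means left 1 raised target down with both drugs. No share of all genes is given at these settings, so the counts cannot be set against it. In PAC 16 h r of MYC was 0.37 as Spearman's rho and 0.36 without the 2 farthest cells. A total without the gene itself, or of the top 5000 genes, moved no r of the 7 genes by over 0.1. With an E-value above 1 in place of 0 for detection, 24 of 42 shares left their interval. No paired analysis was possible because each cell has its own number and no number is shared between conditions.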
